A study of Mus musculus with 40 samples.

Results

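The genes described here were 8 genes of peroxisomal fatty acid oxidation in mouse liver, namely Abcd2, Abcd3, Ehhadh, Hsd17b4, Acaa1a, Acaa1b, Crat and Acnat2. They were examined in 3 lists of chromatin immunoprecipitation sequencing (ChIP-seq) peaks, 1 each for the corepressors SMRT and NCoR and for the histone deacetylase HDAC3. A peak was counted for a gene when its centre lay inside the gene or within 50 kb of it on the mm10 build, and all 8 genes were found among the 21938 protein-coding genes of the annotation. This selected 28 of 10654 SMRT peaks, 72 of 35138 NCoR peaks and 43 of 14462 HDAC3 peaks. No peak was counted for more than 1 of the 8 genes. The animals were male C57BL/6 mice with free access to food. They carried floxed alleles of Bcl6 (Bcl6 fl/fl) and no Albumin-cre, so Bcl6 was intact, and they are the control (WT) animals of a study on the transcriptional repressor BCL6. Each list pooled 3 replicate libraries of whole liver, and the other 31 of the 40 samples in the series were not analysed here. The lists gave positions only, with no height, score or replicate value, and the depth of the libraries is not given in the sources used here. No value below therefore has an error between animals, and fed control liver is the only condition described. Positions of peaks hold no expression values, so the liver label could not be checked against marker genes.

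Peroxisomes shorten very long chain, branched chain and dicarboxylic fatty acids, which mitochondria handle poorly, and pass the shortened products on as carnitine esters. ABC transporters carry the acyl-CoA substrates in, a bifunctional enzyme hydrates and dehydrogenates the chain after the oxidase step, and a thiolase releases acetyl-CoA. In liver many genes of this route are known targets of the nuclear receptor PPARα, which binds DNA with RXR at repeats of the half-site AGGTCA. NCoR and SMRT are related corepressors that bridge such transcription factors to HDAC3, which removes acetyl groups from histones.

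Every one of the 8 genes had at least 1 site where peaks of all 3 cofactors lay together. A shared site was an NCoR peak with the centres of both an SMRT and an HDAC3 peak within 200 bp, and an NCoR-only site was an NCoR peak with neither. The 3 lists came from separate libraries of whole liver, so a shared site does not show the cofactors bound at once in the same cell. Among all protein-coding genes, 39.2% had a shared site within 50 kb. An NCoR peak within that distance was likewise present at 8 of 8 genes, against 72.3% of all genes, a SMRT peak at 8 of 8 against 43.1%, and an HDAC3 peak at 8 of 8 against 52.1%. Of all genes with an NCoR peak in reach, 54.2% also had a shared site in reach. The shared site lay inside the gene itself at 7 of the 8 genes, the exception being Acnat2, and at 13.1% of all genes. Each of the 8 genes also held the nearest transcription start site (TSS) of at least 1 shared site, which was so for 20.9% of all genes. The 8 genes were chosen with earlier results of these data known, so these counts are descriptions and carry no p-value.

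Because peaks of the 3 cofactors lay together at the shared sites, the sequences under those nearest to the start of 6 of the genes are printed. A further shared site of Acaa1a that held a match to the PPAR-type repeat is printed with them. Each line gives the NCoR interval on mm10, 5′ to 3′ in the direction of the gene. Capitals mark matches to 1 of the 7 motifs described further on. A line holds 229 bases, 1 more than end minus start, since both end positions are included. The site nearest to the start of Crat is not printed because it overlapped the annotated 5′ UTR, and sequence at Hsd17b4 is not reported here.
Abcd2, chr15:91191810-91192038, minus strand: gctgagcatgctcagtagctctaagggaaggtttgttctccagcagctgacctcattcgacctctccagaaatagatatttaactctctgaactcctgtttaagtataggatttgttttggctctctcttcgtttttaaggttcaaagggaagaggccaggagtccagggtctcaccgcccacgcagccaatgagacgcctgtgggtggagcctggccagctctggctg
Abcd3, chr3:121795635-121795863, minus strand: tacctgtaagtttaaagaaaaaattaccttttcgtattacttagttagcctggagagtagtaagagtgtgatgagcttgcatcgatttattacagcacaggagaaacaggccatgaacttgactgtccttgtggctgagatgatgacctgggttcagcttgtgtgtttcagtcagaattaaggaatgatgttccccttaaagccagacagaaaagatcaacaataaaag
Ehhadh, chr16:21782892-21783120, minus strand: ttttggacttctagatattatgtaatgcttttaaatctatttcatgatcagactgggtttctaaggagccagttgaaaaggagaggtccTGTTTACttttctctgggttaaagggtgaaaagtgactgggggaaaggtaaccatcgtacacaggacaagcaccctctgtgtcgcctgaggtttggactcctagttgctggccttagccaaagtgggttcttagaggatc
Acaa1a, chr9:119342782-119343010, plus strand: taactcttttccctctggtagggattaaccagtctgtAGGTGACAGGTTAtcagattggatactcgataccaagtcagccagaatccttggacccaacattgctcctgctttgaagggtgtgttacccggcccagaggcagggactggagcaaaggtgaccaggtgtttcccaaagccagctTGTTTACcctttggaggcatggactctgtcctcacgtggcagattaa
Acaa1a, chr9:119368480-119368708, plus strand: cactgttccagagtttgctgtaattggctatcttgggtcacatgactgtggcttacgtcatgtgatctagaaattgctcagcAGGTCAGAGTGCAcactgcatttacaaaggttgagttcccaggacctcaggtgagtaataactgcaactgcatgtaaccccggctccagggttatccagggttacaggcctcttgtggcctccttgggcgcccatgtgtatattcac
Acaa1b, chr9:119155507-119155735, minus strand: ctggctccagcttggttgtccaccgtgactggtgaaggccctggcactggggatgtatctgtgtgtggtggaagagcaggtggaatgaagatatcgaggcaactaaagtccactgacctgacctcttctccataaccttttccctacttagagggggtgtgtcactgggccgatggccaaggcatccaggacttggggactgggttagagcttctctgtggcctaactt
Acnat2, chr4:49437045-49437273, minus strand: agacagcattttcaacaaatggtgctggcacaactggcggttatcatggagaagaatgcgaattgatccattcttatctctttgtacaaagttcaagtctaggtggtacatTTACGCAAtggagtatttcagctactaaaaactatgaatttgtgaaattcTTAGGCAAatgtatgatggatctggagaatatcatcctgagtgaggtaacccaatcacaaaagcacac

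Numbers of peaks differed between the genes more for NCoR than for SMRT. NCoR peaks numbered 12 at Ehhadh, 12 at Acaa1a, 11 at Abcd3, 11 at Crat, 9 at Acnat2, 8 at Abcd2, 6 at Acaa1b and 3 at Hsd17b4. The median was 10, against 2 over all protein-coding genes. SMRT peaks ranged from 2 to 5 per gene with a median of 3, against 0 over all genes, and HDAC3 peaks ranged from 2 to 8 with a median of 6, against 1. Shared sites numbered 5 at Acaa1a and 5 at Crat, 4 at Ehhadh, 3 each at Acaa1b, Abcd2 and Abcd3, and 2 each at Hsd17b4 and Acnat2. NCoR-only sites ranged from 1 at Hsd17b4 to 6 at Abcd3, with a median of 4 against 1 over all genes. The stretches searched were similar in length, with a median of 127 kb for the 8 genes and 117 kb for all genes. Both include the 50 kb on either side, so the genes themselves differed more in proportion. The share of genes with a shared site inside them was not adjusted for gene length.

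**Figure D1:**
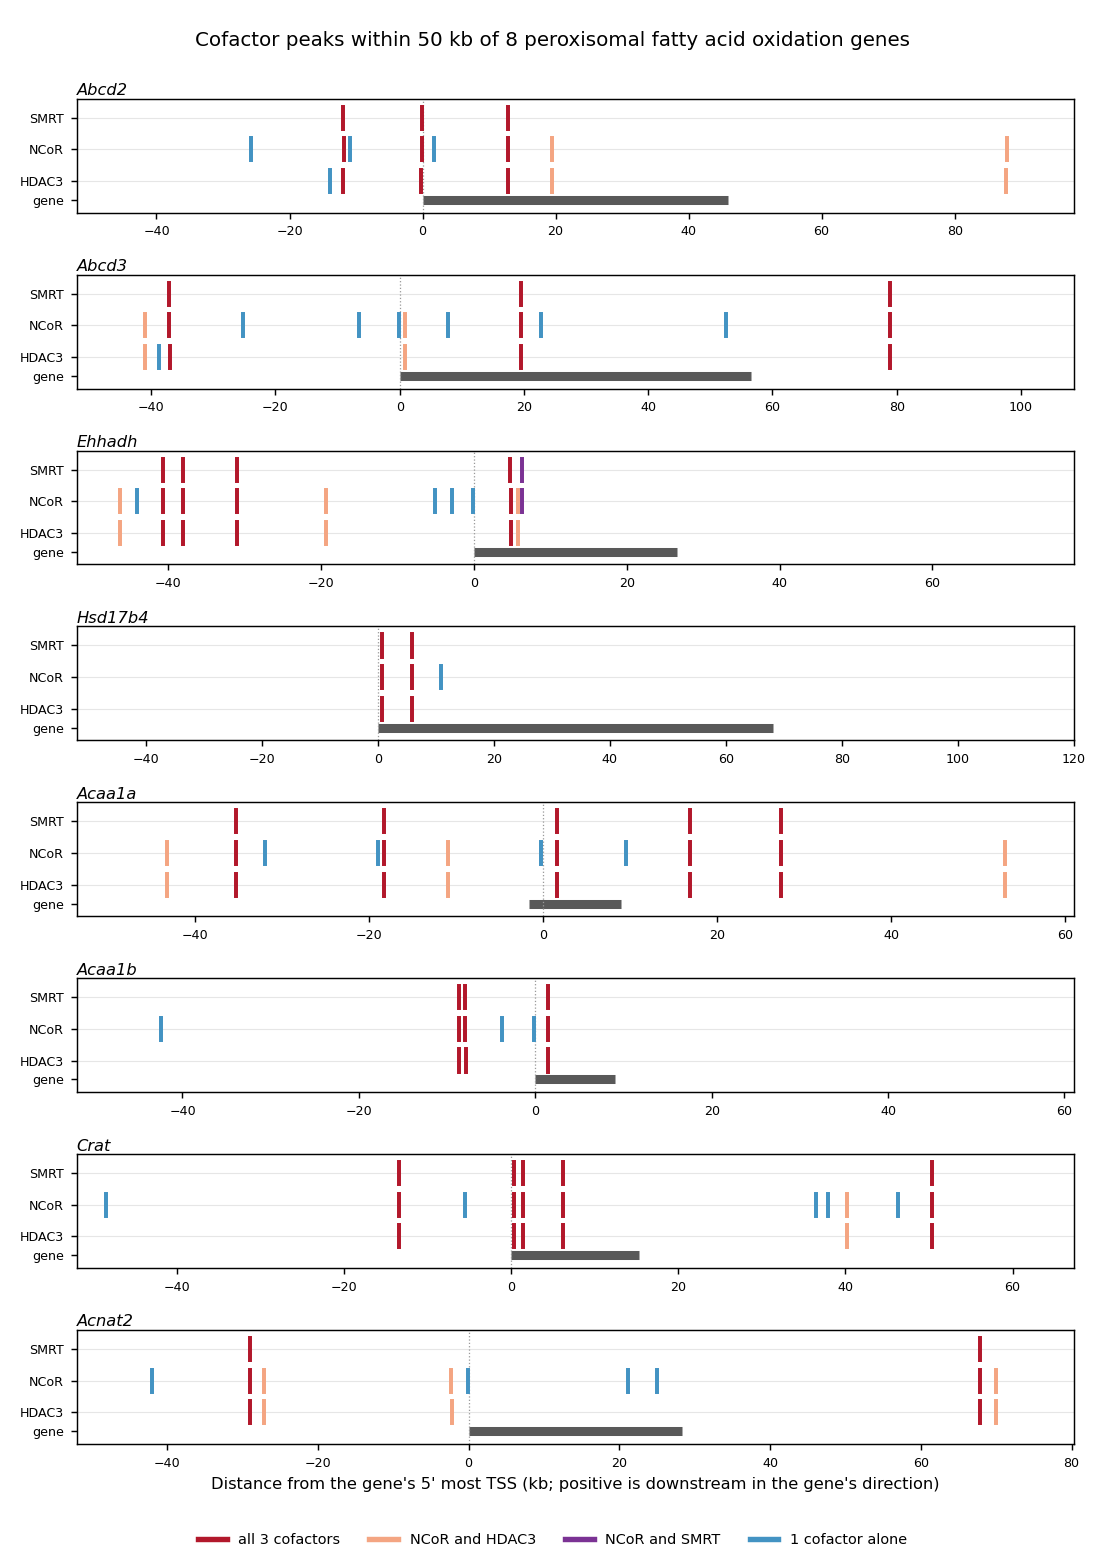
SMRT, NCoR and HDAC3 peaks (vertical bars, 1 row per list) by distance in kb from the gene's most upstream TSS, positive in the direction of transcription, with the gene drawn as a grey bar. Red bars are sites with all 3 cofactors, orange NCoR with HDAC3, purple NCoR with SMRT and blue 1 cofactor alone. All 8 genes have red bars, Acaa1a and Crat the most with 5 each, and Hsd17b4 has 3 NCoR peaks, all inside the gene.

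Per 100 kb searched, 7 of the 8 genes had a high density of NCoR peaks and Hsd17b4 did not. Acaa1a had 10.8 NCoR peaks per 100 kb, which was above 99.1% of protein-coding genes. Crat had 9.54 and Ehhadh 9.48 per 100 kb, above 97.9% of genes in each case. Abcd3 and Acnat2 had 7.03 and 7.01 per 100 kb, and Acaa1b and Abcd2 had 5.50 and 5.48. Hsd17b4, the longest of the genes, had 1.78 per 100 kb, near the median of 1.76 over all genes and above 50.6% of them. For shared sites the density was 4.52 per 100 kb at Acaa1a, 4.33 at Crat, 3.16 at Ehhadh, 2.75 at Acaa1b, 2.06 at Abcd2, 1.92 at Abcd3, 1.56 at Acnat2 and 1.19 at Hsd17b4. The median was 2.40 for the 8 genes and 0 for all genes. Even the lowest, that of Hsd17b4, was above 82.2% of all genes.

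**Figure D2:**
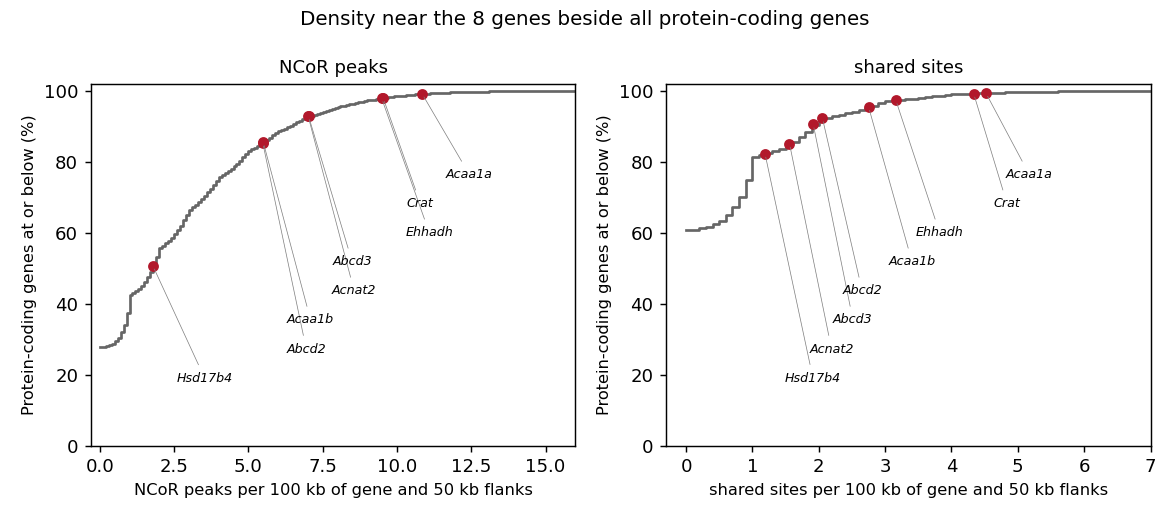
The grey line gives the percentage of all 21938 protein-coding genes at or below each density, on the x axis, of NCoR peaks (left) or shared sites (right) per 100 kb of gene and flanks. Red points mark the 8 genes, of which Acaa1a is the highest in both panels and Hsd17b4 the lowest, near the middle of all genes for NCoR at 1.78 per 100 kb.

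Near the 8 genes the NCoR peaks held more shared and fewer NCoR-only sites than the whole list. Of the 72 NCoR peaks, 27 were shared sites (37.5%, exact 95% binomial interval 26.4 to 49.7), against 24.9% of all NCoR peaks. NCoR-only sites made up 30 (41.7%, 30.2 to 53.9), against 56.1%. Another 14 had HDAC3 without SMRT (19.4%, 11.1 to 30.5), against 14.8%, and 1 had SMRT without HDAC3 (1.39%, 0.0352 to 7.50), against 4.16%. These intervals cover counting error only, since peaks of 1 gene are not independent and are not replicates. Of the 28 SMRT peaks, 27 lay at shared sites (96.4%, against 81.9% of the whole SMRT list), and none was without NCoR. In the whole SMRT list 3.35% had no partner and 0.901% had HDAC3 without NCoR. Of the 43 HDAC3 peaks, 27 lay at shared sites (62.8%, against 60.4%) and 14 had NCoR without SMRT. The 2 HDAC3 peaks without a partner (4.65%, against 2.95%) were at chr15:91205653-91205865, in the Abcd2 window, and at chr3:121854002-121854214, in the Abcd3 window. At the 27 shared sites the centres nearly coincided. The NCoR centre was a median of 14 bp from that of SMRT (range 1 to 58) and 15 bp from that of HDAC3 (range 1 to 54), against 23 and 21 bp over all 8739 shared sites.

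**Figure D3:**
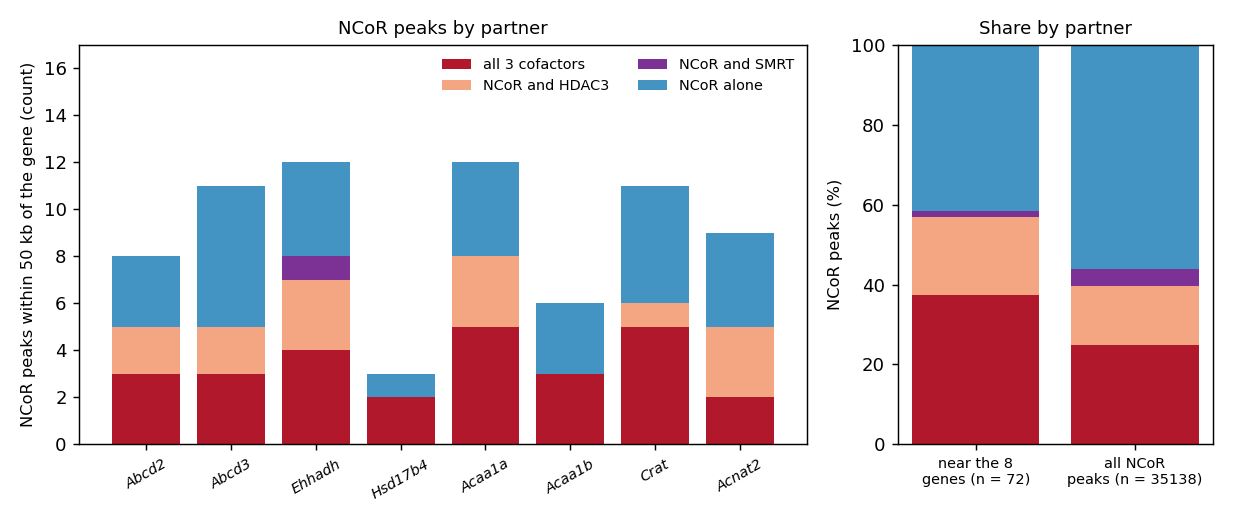
Left, the number of NCoR peaks within 50 kb of each gene, stacked by partner; right, the same classes in percent for the 72 peaks near the 8 genes and for all 35138 NCoR peaks. Shared sites (red) make up 37.5% near the 8 genes and 24.9% of all peaks, and Ehhadh is the gene with an NCoR and SMRT site (purple).

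NCoR lay close to the start of every one of the 8 genes, and at 5 of them without its partners. A peak was called a promoter peak when its centre lay from 1000 bp upstream to 100 bp downstream of a TSS of the gene. By this definition 7 of the 8 genes had an NCoR promoter peak, against 16.9% of all protein-coding genes. The promoter peak was NCoR-only at 5 of 8 genes, against 12% of all genes. Among genes with an NCoR promoter peak, these were 5 of 7 here and 2631 of 3713 over all genes, a similar share. The centre of the NCoR-only promoter peak lay 96 bp upstream of the TSS at Ehhadh, 195 bp upstream at Acaa1a, 126 bp at Acaa1b, 64 bp at Abcd3 and 73 bp at Acnat2. At Abcd2 and Crat the promoter peak was a shared site, with centres 125 bp upstream and 59 bp downstream of a TSS. Hsd17b4 had no promoter peak, and its first shared site lay 672 bp into the gene. The distance from the TSS to the nearest NCoR peak had a median of 110.5 bp (range 59 to 672), against 18428 bp over all genes, and an NCoR peak lay within 2 kb of a TSS at 8 of 8 genes and at 25.9% of all genes. Among all genes with an NCoR promoter peak, 63.6% had a shared site within 50 kb.

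The nearest shared site usually lay a short way into the gene. Its distance from the TSS had a median of 1426.5 bp (range 59 to 29008), against 104404 bp over all genes. It lay within 2 kb of a TSS at 5 of 8 genes, namely Crat, Abcd2, Hsd17b4, Acaa1a and Acaa1b, against 4.66% of all genes. In Ehhadh, Acaa1a, Acaa1b, Hsd17b4 and Abcd3 it was intronic. Only Acnat2 had its nearest shared site outside the gene and promoter.

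**Figure D4:**
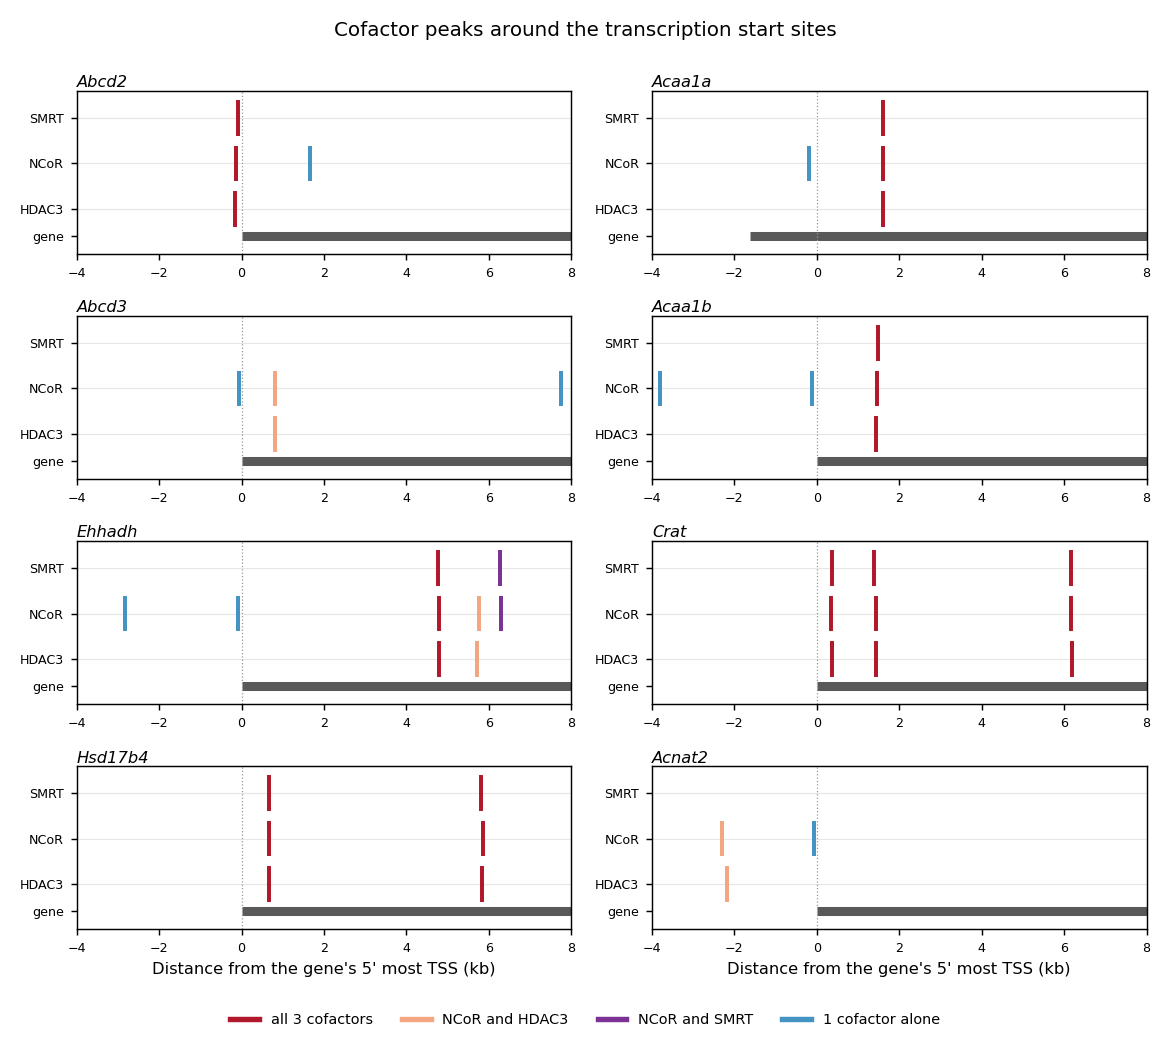
SMRT, NCoR and HDAC3 peaks from 4 kb upstream to 8 kb downstream of each gene's most upstream TSS (x axis, kb), coloured by partner. Blue NCoR bars sit just upstream of the TSS at Abcd3, Ehhadh, Acaa1a, Acaa1b and Acnat2, and red bars of all 3 cofactors lie at the TSS of Abcd2 and inside Crat, Hsd17b4, Acaa1a, Acaa1b and Ehhadh.

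Abcd2 and Abcd3 encode ABC transporters of the peroxisomal membrane, Abcd2 for very long chain acyl-CoAs and Abcd3, also known as PMP70, for long and branched chain substrates. Abcd2 (chr15:91145871-91191799, minus strand) had 3 SMRT, 8 NCoR and 6 HDAC3 peaks. Its shared sites were at the promoter (chr15:91191810-91192038), in intron 4 (chr15:91178793-91179021) and 11880 bp upstream (chr15:91203565-91203793). The last of these was nearer to a TSS of CN725425 than to that of Abcd2. An NCoR-only site lay in intron 1 and an NCoR and HDAC3 site in intron 6. Abcd3 (chr3:121758774-121815302, minus strand) had 3 SMRT, 11 NCoR and 6 HDAC3 peaks. Around its TSS there was no SMRT peak. An NCoR-only peak lay at the promoter (chr3:121815252-121815480) and an NCoR and HDAC3 site 675 bp downstream of a TSS in intron 1 (chr3:121814377-121814605). The first shared site was 19417 bp into the gene, in intron 2 (chr3:121795635-121795863). The other shared sites lay 37063 bp upstream (chr3:121852251-121852479) and past the 3′ end, nearest to F3 (chr3:121736236-121736464).

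Ehhadh encodes the L-bifunctional enzyme, which hydrates the enoyl-CoA and then oxidises it. The gene (chr16:21761287-21787807, minus strand) had 5 SMRT, 12 NCoR and 7 HDAC3 peaks. Within intron 1, 3 neighbouring NCoR peaks each had a different set of partners. The first, 4801 bp from the TSS (chr16:21782892-21783120), was shared. The next, 5756 bp from the TSS (chr16:21781937-21782165), had HDAC3 and not SMRT. The third, 6306 bp from the TSS (chr16:21781387-21781615), had SMRT and not HDAC3, and was the only such site near the 8 genes. The promoter peak (chr16:21787789-21788017) and a peak 2835 bp upstream (chr16:21790528-21790756) were NCoR-only. The other 3 shared sites lay 31004, 38139 and 40725 bp upstream and were nearest to TSSs of Map3k13, which held the nearest TSS of 7 of the 12 NCoR peaks. The site at 38139 bp was centred 4 bp from a Map3k13 TSS. In the farthest of the 3 (chr16:21828418-21828646) 71.6% of 75 bp words were unique in the genome.

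The intron 1 shared site of Ehhadh lay where the study had placed an amplicon for quantitative PCR on immunoprecipitated chromatin. That assay, as the study describes it, used antibodies to BCL6 and PPARs and control IgG, and none to SMRT, NCoR or HDAC3, so it is no second measurement of the cofactors. The primers, printed because they give the position of the amplicon, matched chr16:21782878-21782900 (plus strand) and chr16:21782962-21782982 (minus strand) and bounded 105 bp. The amplicon overlapped the NCoR interval by 91 bp, and their centres were 76 bp apart.
Ehhadh forward primer: cccatagggagaaagatcctcta
Ehhadh reverse primer: aaccatcgtacacaggacaag

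Acaa1a and Acaa1b encode the peroxisomal 3-ketoacyl-CoA thiolases, which perform the last step of a cycle. Acaa1a (chr9:119339676-119350299, plus strand) had 5 SMRT, 12 NCoR and 8 HDAC3 peaks, and Acaa1b (chr9:119148023-119157093, minus strand) had 3, 6 and 3. Near the start the pair looked alike. Each had an NCoR-only promoter peak (chr9:119340985-119341213 and chr9:119157105-119157333) and then a shared site in intron 3 (chr9:119342782-119343010 and chr9:119155507-119155735), 1381 and 1472 bp downstream of a TSS. The promoter peak of Acaa1a lay inside the annotated span of Acaa1a, because the TSS used (chr9:119341294) is within that span. The same peak also lay in the annotated spans of Slc22a14 and Myd88, the latter a gene named after its position was seen. The coding sequences of the 2 genes were identical at 1228 of 1272 positions (96.5%). The shared sites did not align in the same way. The best local alignment of the Acaa1a interval to Acaa1b with 5 kb on either side took in 85 of its 229 bp at 64.4% identity, and that of the Acaa1b interval to Acaa1a took in 37 bp at 73.7%. Both alignments had 0 bp in common with the NCoR interval of the other gene. For the promoter peaks the alignments took in 112 bp at 59.7% and 49 bp at 79.6%, again with 0 bp in common. Such a search returns a best alignment for unrelated sequences too, and the identity those would reach was not computed. All 4 of these NCoR intervals lay in sequence where every 75 bp word is unique in the genome.

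Away from its start, Acaa1a had shared sites 35291 and 18310 bp upstream, nearest to Oxsr1, and 16692 and 27079 bp downstream, nearest to Xylb and Slc22a14. Oxsr1 held the nearest TSS of 6 of the 12 NCoR peaks of Acaa1a. The other shared sites of Acaa1b formed a pair 7914 and 8624 bp upstream, nearest to Gm47289.

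Crat encodes carnitine acetyltransferase, which moves acetyl groups from CoA to carnitine for export. The gene (chr2:30400471-30415813, minus strand) had 5 SMRT, 11 NCoR and 6 HDAC3 peaks. All 3 NCoR peaks inside Crat were shared sites. They lay at the promoter (chr2:30415351-30415579), in intron 2 (chr2:30414262-30414490) and in intron 4 (chr2:30409527-30409755). Its 5 NCoR-only sites were all outside the gene. The shared sites outside were nearest to Ptpa, 13481 bp upstream, and to Miga2, beyond the 3′ end and 1168 bp from a Miga2 TSS.

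Acnat2 encodes an acyltransferase related to Baat, the enzyme that conjugates bile acids. The gene (chr4:49379840-49408151, minus strand) had 2 SMRT, 9 NCoR and 5 HDAC3 peaks. Inside and at the promoter of Acnat2 all 3 NCoR peaks were NCoR-only. One was at the promoter (chr4:49408110-49408338), one in intron 2 (chr4:49386927-49387155) and one in a coding exon (chr4:49382977-49383205), 485 bp downstream of the second TSS. A peak 2291 bp upstream had HDAC3 without SMRT. The 2 shared sites lay 29008 bp upstream, nearest to Acnat1 (chr4:49437045-49437273), and beyond the 3′ end (chr4:49340168-49340396). Acnat2 was also the least mappable of the 8 genes. Of the 75 bp words in it, 60.9% were unique in the genome, against 90.9 to 99.6% in the others. The authors kept uniquely aligned reads, so peaks in its other sequence could have been missed, which was not tested. In the promoter peak 52.5% of the words were unique, and in the shared site upstream all were. In the shared site beyond the 3′ end 78.55% were. That site, centred 43294 bp from a TSS, was the only shared site whose nearest TSS was that of Acnat2.

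Hsd17b4 encodes the D-bifunctional protein, which also takes branched chain substrates and bile acid precursors. The gene (chr18:50128201-50196269, plus strand) had 2 SMRT, 3 NCoR and 2 HDAC3 peaks, the fewest of the 8 genes in each list, with Acnat2 also at 2 SMRT peaks. All lay in the first part of the gene, at 672 bp (intron 1, shared), 5852 bp (intron 2, shared) and 10946 bp (intron 2, NCoR-only) from the TSS. Each NCoR peak of this window had the Hsd17b4 TSS as its nearest, which was so at no other of the 8 genes.

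Distance alone does not assign a peak to a gene, and many peaks near the 8 genes were closer to another. Of the 72 NCoR peaks, 34 had a TSS of one of the 8 genes as the nearest and 38 had that of another protein-coding gene. The share of shared sites was 38.2% (13 of 34) in the former and 36.8% (14 of 38) in the latter. By location, 27 of the 72 were at a promoter of the gene or inside it, of which 11 were shared (40.7%), and 45 were outside, of which 16 were shared (35.6%). Introns held 19 NCoR peaks, 9 of them shared and 6 NCoR-only. Promoters held 7, of which 2 were shared and 5 NCoR-only.

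The PPAR-type repeat was found in a small share of the sites. DR1, 2 half-sites AGGTCA with 1 base between them, was searched on both strands of the central 200 bp with at most 2 of 12 positions changed. It was present in 11 of the 72 NCoR windows (15.3%), against 12.9% of all 35137 NCoR windows searched and 3.18% of windows 2 kb to either side. Of the 27 shared sites 3 held a match, against 14.7% of all shared sites. Of the 30 NCoR-only sites 5 did, and the share over all NCoR-only sites was not computed. At Ehhadh the NCoR-only site 2835 bp upstream held 2 matches. No promoter peak of the 8 genes held one at this setting, which says only that these letters are not in those windows. Printed are the matches in shared sites and in sites nearest to a TSS of the 8 genes, and the single match with 1 mismatch, at 45992 bp in the Crat window, with the element in capitals, 10 bases on either side, and the distance of the peak centre from the TSS in bp after the gene name.
Abcd3 +675, chr3:121814481-121814493, minus strand: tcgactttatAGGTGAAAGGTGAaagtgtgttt
Ehhadh −2835, chr16:21790613-21790625, plus strand: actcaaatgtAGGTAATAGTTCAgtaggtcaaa
Ehhadh −2835, chr16:21790628-21790640, plus strand: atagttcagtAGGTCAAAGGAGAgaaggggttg
Acaa1a +1381, chr9:119342819-119342831, plus strand: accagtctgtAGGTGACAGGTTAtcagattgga
Acaa1a +27079, chr9:119368562-119368574, plus strand: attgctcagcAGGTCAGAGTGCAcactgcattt
Crat −13481, chr2:30429376-30429388, plus strand: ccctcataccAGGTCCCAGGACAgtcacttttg
Crat +45992, chr2:30369510-30369522, plus strand: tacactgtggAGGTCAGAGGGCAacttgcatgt
Acnat2 −2291, chr4:49410448-49410460, minus strand: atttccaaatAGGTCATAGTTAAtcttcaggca

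The letters TTCNNNGAA, the core recognised by BCL6 and STAT factors, were in 4 of the 72 windows (5.56%), against 7.10% of all NCoR windows and 6.32% of flanking windows. All 4 were NCoR-only sites, and they lay in Hsd17b4 (intron 2), Abcd2 (intron 1), Abcd3 (intron 21) and Acnat2 (intron 2). None of the 27 shared sites held these letters, against 7.77% of all shared sites. The share over all NCoR-only sites was not computed for these letters, so no comparison between the classes is drawn. The HNF4 letters CAAAGTCCA were in 4 windows (5.56%, against 2.10% of all NCoR windows), among them the promoter peak of Abcd3. The FOX letters TGTTTAC were in 6 (8.33%, against 7.74%), which included the shared sites of Ehhadh and Acaa1a printed above. The C/EBP letters TTNNGCAA were in 11 (15.3%, against 19.1%), the ERR letters TNAAGGTCA in 3 (4.17%, against 3.62%) and the HNF6 letters TATTGAT in 3 (4.17%, against 6.17%). All were searched on both strands, and the ERR letters can overlap a DR1 match. With counts this small, 1 window moves a share by 1.39 percentage points. A match is a description of the letters and not evidence of a bound factor.

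Other peroxisomal genes were compared by list. Of 20 further genes of peroxisomal lipid oxidation, 20 had an NCoR peak within 50 kb, against 72.3% of all genes. A shared site lay within 50 kb of 18 (90.0%), against 39.2% of all genes and 8 of 8 genes above. An NCoR promoter peak was present at 12 (60.0%) and an NCoR-only one at 5 (25%), against 16.9% and 12%. Of 16 genes of peroxisome assembly and division, 15 had an NCoR peak within 50 kb, against the same 72.3%. Of the 16, 13 (81.2%) had a shared site, 4 (25%) an NCoR promoter peak and 1 (6.25%) an NCoR-only one. The nearest TSS of at least 1 shared site was held by 12 of the 20 lipid oxidation genes. Among the 16 assembly genes it was held by 4 (25%), near the 20.9% of all genes. The median number of NCoR peaks was 10 for the 8 genes, 8 for lipid oxidation, 4.5 for assembly and 2 for all genes. The median density of shared sites was 2.40, 1.17, 0.908 and 0 per 100 kb. Most shared sites were found at Scp2, a sterol carrier protein and thiolase, with 7, then Crot, which makes medium chain carnitine esters, with 5, Eci2, an enoyl-CoA isomerase, with 5, and Pecr, an enoyl-CoA reductase, with 4, a count that Pex11a shared. Pecr and Pex11a held the nearest TSS of no shared site. Pex3, which inserts peroxisomal membrane proteins, had no peak of any cofactor within 50 kb. Acnat1 and Baat both lie near Acnat2 and near each other, so the lipid oxidation list shares peaks with the 8 genes and within itself. The gene shares given for comparison count every protein-coding gene, whether or not liver expresses it.

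**Figure D5:**
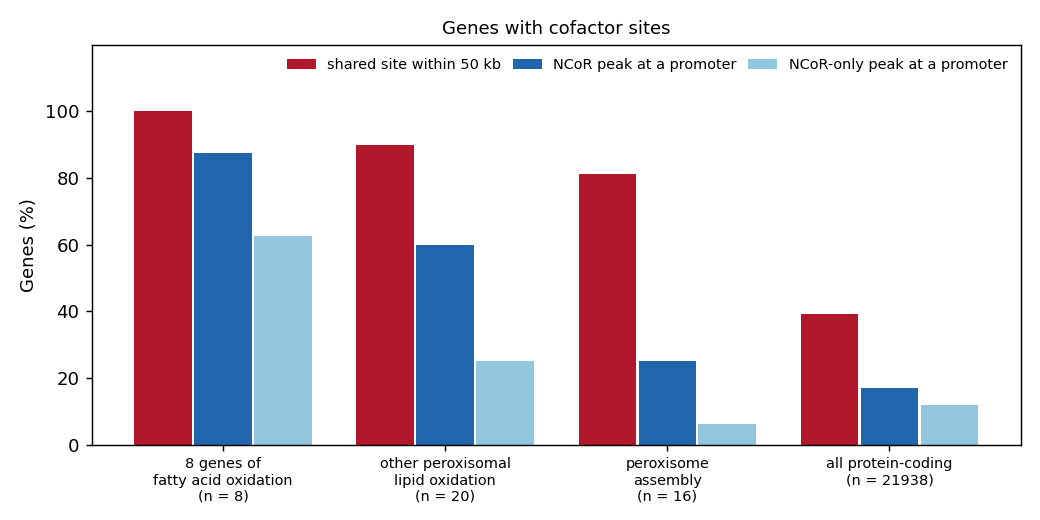
Percentage of genes (y axis) with a shared site within 50 kb (red), an NCoR promoter peak (dark blue) and an NCoR-only promoter peak (light blue) for the 8 genes, 2 other peroxisomal lists and all protein-coding genes. Shared sites within 50 kb are common in all peroxisomal lists (100, 90.0 and 81.2%, against 39.2%). Of the 16 assembly genes, 4 held the nearest TSS of one. NCoR promoter peaks fall from 87.5% to 60.0% to 25% across the lists, against 16.9%.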

How the data were processed

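ChIP-seq libraries of mouse liver were deposited as peak lists. The authors aligned 75 bp reads to mm10 with Bowtie, kept unique alignments, called peaks with HOMER on pooled replicates against input and filtered them with DESeq2. The deposited values are the chromosome, start and end of each peak, with no count, signal or score (end minus start was 228 bp for every NCoR interval and 212 bp in the other lists), so depth and spread between animals are unknown here. Replicates were separate libraries, but each list pooled 3 of them.

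Genes and TSSs were those of the GENCODE mouse release 21 basic annotation, and sequences were read from GRCm38, the assembly of mm10. Peaks were compared by their centres with Python 3.11.15 and pandas 2.3.3, and exact binomial intervals were from scipy 1.17.1. Distances are to the nearest TSS of a gene. Coordinates are as the lists give them. The share of unique 75 bp words was computed from the genome, and the scripts were tested on simulated data. All 8 genes were described. Of the other peroxisomal lists, genes with no peak and the 4 that held most shared sites (in ties, the first by symbol) were named, and other genes where they held the nearest TSS of a peak. Genes and lists were chosen with earlier results of these data known, so no test was run.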

Additional observations from a re-analysis of the deposited data

How the results depend on the processing

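Of 50 recomputed values, 43 stayed within 1.5 times the reported count, or within the exact 95% binomial interval of the reported share, and 7 moved beyond that. With 10 kb around the genes in place of 50 kb there were 15 SMRT, 38 NCoR and 19 HDAC3 peaks, and with 25 kb there were 27 HDAC3 peaks. At 10 and 25 kb a shared site was in reach of 7 of the 8 genes. With TSSs of all gene types, 21 of the 72 NCoR peaks were nearest to one of the 8 genes, in place of 34. DR1 was present in 1.39% of windows with at most 1 mismatch, against 2.73% of all NCoR windows, and in 52.8% with at most 3, against 42.2%. In the central 100 bp it was present in 7 of 72 windows (9.72%), below the reported 15.3% by over 1.5 times though inside its interval. NCoR peaks numbered 49 at 25 kb and 107 at 100 kb. The share of shared sites ranged from 32.7 to 39.7% and that of NCoR-only sites from 41.3 to 47.4% over windows of 10 to 100 kb, overlaps of 100 or 400 bp or 1 shared bp, and leaving out Acaa1a or Acnat2. Acaa1a had as many NCoR peaks as Ehhadh and was taken by symbol. Leaving out Acnat2 was added after the data were seen. A promoter of 2500 bp on either side of the TSS gave 8 of 8 genes an NCoR peak. Shares of all genes were not computed for this promoter or for the 10 and 25 kb windows. The share of all NCoR windows with DR1 in the central 100 bp was not computed either. No paired analysis was possible because the authors merged the replicates before listing positions, and for the same reason no replicate could be left out. A stricter peak threshold was not run, since the lists hold no score. Sites below the authors' threshold are not listed, so a missing peak does not show that a cofactor was absent, and the shorter SMRT and HDAC3 lists make an NCoR-only site depend on the depth of those lists, which was not tested.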
